A study of Mus musculus with 9 samples.

Results

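The dual-specificity MAP kinase phosphatases were followed through their genes Dusp1, Dusp2, Dusp4, Dusp5, Dusp6, Dusp7, Dusp10 and Dusp16 in mouse follicular B cells, the main naive B cell population of splenic follicles. These 8 genes of 22180 named on the array were a chosen list, which does not hold every dual-specificity phosphatase gene. Each has a probe set that carries its symbol alone. Where a gene had several such probe sets the one with the highest mean signal was used. The cells were sorted from spleens of mice aged 6 to 12 weeks with 3 genotypes at the immunoglobulin heavy chain locus, and each genotype had 3 arrays. In Igh[epsilon]/[epsilon] VJk5 mice, called ε/ε here, both heavy chain alleles carry the name of ε, the IgE constant region. In Igh[gamma]1/[gamma]1 VJk5 mice, called γ1/γ1, both carry the name of γ1, the IgG1 constant region. Ighwt VJk5 mice carry the wild-type locus. VJk5 is shared by all 9 samples and is not explained in the labels. How the alleles were made is not described there either. The series asks how the isotype and dose of the B cell receptor bear on the fate of B cells. The replicates are called independent without being named as separate animals, so p-values reflect only the variation among these samples, which may be technical. Whether cells were fewer or held less RNA each cannot be told apart in such bulk samples.

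MAP kinases (ERK, JNK and p38) are switched on when a kinase adds phosphate to a threonine and a tyrosine of their activation loop, and the dual-specificity phosphatases switch them off by removing both. Engagement of the B cell receptor activates ERK through Ras. Several of the phosphatase genes are themselves switched on by MAP kinase signalling, so that they act as feedback brakes on the pathway. Dusp1, Dusp2, Dusp4 and Dusp5 encode nuclear enzymes whose genes are inducible. Dusp6 and Dusp7 encode cytoplasmic enzymes that act mainly on ERK. Dusp10 and Dusp16 encode enzymes that act mainly on JNK and p38.

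The RefSeq promoter windows (GRCm38.p6, 250 bases before to 50 bases after the start site) of the genes that rose in ε/ε cells are shown because inducible phosphatase genes are known as targets of CREB and AP-1, and that of Dusp5, whose signal did not pass the test, because it also held such motifs. They lie at chr17:26508423-26508722 on the minus strand (Dusp1), chr2:127335909-127336208 on the plus strand (Dusp2), chr6:134792579-134792878 on the minus strand (Dusp16) and chr19:53528895-53529194 on the plus strand (Dusp5). Capitals mark the core of the cyclic AMP response element, TGACG on either strand, and in Dusp5 also the CArG box, the motif bound by serum response factor.
Dusp1: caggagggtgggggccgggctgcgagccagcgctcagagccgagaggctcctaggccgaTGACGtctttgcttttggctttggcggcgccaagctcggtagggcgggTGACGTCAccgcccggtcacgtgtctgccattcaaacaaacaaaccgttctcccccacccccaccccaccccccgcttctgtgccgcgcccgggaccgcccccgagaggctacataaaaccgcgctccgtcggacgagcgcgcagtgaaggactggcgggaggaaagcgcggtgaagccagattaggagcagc
Dusp2: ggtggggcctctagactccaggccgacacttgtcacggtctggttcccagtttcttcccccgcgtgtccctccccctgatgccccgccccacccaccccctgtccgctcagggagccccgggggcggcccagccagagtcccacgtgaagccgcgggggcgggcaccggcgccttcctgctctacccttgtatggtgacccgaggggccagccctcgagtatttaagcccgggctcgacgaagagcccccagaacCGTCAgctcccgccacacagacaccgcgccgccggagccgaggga
Dusp16: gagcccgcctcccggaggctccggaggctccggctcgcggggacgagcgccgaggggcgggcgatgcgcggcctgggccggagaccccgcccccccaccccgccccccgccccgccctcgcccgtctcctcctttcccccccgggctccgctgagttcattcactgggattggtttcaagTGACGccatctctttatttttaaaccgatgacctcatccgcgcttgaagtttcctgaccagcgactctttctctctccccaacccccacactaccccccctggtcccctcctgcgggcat
Dusp5: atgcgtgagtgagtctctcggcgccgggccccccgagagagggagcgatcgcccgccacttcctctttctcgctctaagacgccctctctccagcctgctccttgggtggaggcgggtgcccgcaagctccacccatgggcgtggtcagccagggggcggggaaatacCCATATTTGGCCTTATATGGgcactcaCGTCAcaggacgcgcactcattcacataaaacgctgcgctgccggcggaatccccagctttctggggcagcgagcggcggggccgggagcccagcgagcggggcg
Dusp1 held the whole palindrome TGACGTCA, beginning 143 bases before the start site, and a further TGACG at 191 bases. TGACGTCA holds the core once on each strand. The whole element was found in 1 of the 7 members with a promoter entry and in 1.79% of all 32851 windows. The core was found in 4 of 7, namely Dusp1, Dusp2, Dusp5 and Dusp16, and in 20.8% of all windows. In Dusp16 it began 70 bases before the start site of its window, and in Dusp2 it lay just downstream of that site. The annotated Dusp16 gene, on the minus strand, begins further upstream, at chr6:134807063, so its window holds an internal start site. Dusp5 held 2 CArG boxes, which occurred in 1.63% of all windows. The E-box CACGTG was found in Dusp1 and Dusp2 (7.15% of all windows), while the AP-1 motif TGANTCA (7.81%) and an NF-κB motif (5.89%) were found in 0 of 7. A match describes these letters and is not a bound site.

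Dusp1 was the member with the largest difference between ε/ε and wild-type cells. Dusp1, an early-response phosphatase of p38, JNK and ERK, had log2 signals of 8.16, 7.24 and 7.46 on the ε/ε arrays, 6.53, 6.60 and 6.60 on the γ1/γ1 arrays and 6.30, 5.94 and 5.57 on the wild-type arrays. All ε/ε arrays lay above all γ1/γ1 arrays, and these lay above all wild-type arrays. Dusp1 rose by 1.68 on the log2 scale in ε/ε against wild-type (SE 0.25, 3.21-fold, adjusted p = 0.00607 in limma over 12170 genes). Its adjusted p stayed between 0.00346 and 0.0359 over 19 alternatives. In a further fit, chosen after seeing the data, that left out the 3 arrays with a raised Y-linked transcript and so kept 1 ε/ε array, it was 0.0636 with a difference of 1.52. The γ1/γ1 arrays exceeded wild-type by 0.64 (95% interval 0.09 to 1.19, adjusted p = 0.686). Between ε/ε and γ1/γ1 it was 1.04 (95% interval 0.49 to 1.59, adjusted p = 0.0541).

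Dusp2, a nuclear phosphatase of activated lymphocytes also known as PAC1, had signals of 7.68, 6.94 and 7.56 in ε/ε, 6.64, 6.79 and 6.64 in γ1/γ1 and 6.79, 5.88 and 6.52 in wild-type cells. The ε/ε values lay above the other 6, while the γ1/γ1 and wild-type values overlapped. Dusp2 rose by 1.00 in ε/ε against wild-type (SE 0.25, 1.99-fold, adjusted p = 0.0464 in limma). This call was lost without any of 7 of the 9 arrays (adjusted p = 0.119 and 0.105 without ε/ε replicates 1 and 3, 0.0609, 0.0701 and 0.0693 without γ1/γ1 replicates 1, 2 and 3, 0.152 and 0.107 without wild-type replicates 2 and 3) and held when ε/ε replicate 2 was left out, as it did with wild-type replicate 1 left out. Dusp2 differed by 0.29 for γ1/γ1 minus wild-type (adjusted p = 0.851) and by 0.70 for ε/ε minus γ1/γ1 (adjusted p = 0.163).

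The other inducible nuclear members did not pass. Dusp4, which acts on ERK and JNK in the nucleus, read 3.36, 4.20 and 3.75 in ε/ε, 4.47, 4.10 and 4.54 in γ1/γ1 and 4.19, 4.15 and 4.08 in wild-type cells. These signals lie close to the array medians of 3.53 to 3.69, where background lessens differences, and 1 ε/ε value was below them. The ε/ε and wild-type values overlapped, with a difference of -0.37 (95% interval -0.84 to 0.10, adjusted p = 0.309). Dusp5, an ERK phosphatase of the nucleus, read 4.20, 4.20 and 4.66 in ε/ε, 4.07, 4.38 and 4.20 in γ1/γ1 and 4.20, 4.23 and 3.99 in wild-type cells. The 3 genotypes overlapped, and the interval of the ε/ε minus wild-type difference ran from -0.16 to 0.58 (adjusted p = 0.480). The signals of Dusp5 too were low, above the 75th percentile on 0 arrays, so background may lessen its differences as well.

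Of the JNK and p38 phosphatases, Dusp16 rose in ε/ε cells. Dusp16, also known as MKP-7, had signals of 5.71, 5.13 and 5.94 in ε/ε, 4.88, 4.57 and 4.87 in γ1/γ1 and 4.45, 4.68 and 4.26 in wild-type cells. The lowest ε/ε value was above the highest value of the other 6 arrays. The ε/ε mean of Dusp16 exceeded that of wild-type by 1.13 (SE 0.22, 2.19-fold, adjusted p = 0.0163 in limma). The call was lost without wild-type replicate 3 (adjusted p = 0.0713) and with only the 6 arrays compared (0.0519). The γ1/γ1 minus wild-type difference was 0.31 (95% interval -0.17 to 0.79, adjusted p = 0.811), and that of ε/ε minus γ1/γ1 was 0.82 (adjusted p = 0.0726).

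Dusp10, also known as MKP-5, read 5.83, 4.77 and 5.35 in ε/ε, 4.59, 4.98 and 4.72 in γ1/γ1 and 4.79, 4.68 and 3.94 in wild-type cells. The ε/ε range overlapped both others, through replicate 2. For ε/ε minus wild-type Dusp10 gave 0.85 (95% interval 0.20 to 1.49, adjusted p = 0.106), and without ε/ε replicate 2 it was 1.12 with an adjusted p of 0.0484.

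The ERK phosphatase Dusp6 gave different answers from its 2 probe sets. Probe set 17547559, which stood for the gene as the brighter, read 9.22, 9.21 and 9.40 in ε/ε, 9.27, 9.01 and 8.16 in γ1/γ1 and 9.09, 9.17 and 9.17 in wild-type cells. The ε/ε values lay just above the wild-type values, by 0.13 (95% interval -0.41 to 0.67, adjusted p = 0.779), and γ1/γ1 replicate 3 was the lowest of the 9. Probe set 17236882 read 7.33, 7.83 and 7.40 in ε/ε, 6.53, 6.87 and 6.87 in γ1/γ1 and 6.87, 6.11 and 5.72 in wild-type cells. Here all ε/ε values lay above all others. In a fit of single probe sets, chosen after seeing the data, the ε/ε mean of this dimmer probe set exceeded wild-type by 1.29 (SE 0.29, 2.45-fold, adjusted p = 0.0412 over 22340 probe sets, of which 6.04% passed). Without 8 of the 9 arrays in turn it missed the threshold (adjusted p = 0.0755, 0.0951 and 0.0737 without ε/ε replicates 1, 2 and 3, 0.0516, 0.0656 and 0.0618 without γ1/γ1 replicates 1, 2 and 3, 0.139 and 0.118 without wild-type replicates 2 and 3), and it passed at 0.023 without wild-type replicate 1. With the mean of the probe sets Dusp6 differed by 0.71 between ε/ε and wild-type (adjusted p = 0.0437). Which exons either probe set covers is not given in the sources used here.

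Dusp7, the other cytoplasmic ERK phosphatase, read 5.32, 5.75 and 5.60 in ε/ε, 5.65, 5.66 and 5.53 in γ1/γ1 and 5.73, 5.43 and 5.40 in wild-type cells. All genotypes overlapped. The 95% interval of the ε/ε minus wild-type difference ran from -0.32 to 0.38 around 0.03 (adjusted p = 0.923).

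**Figure D1:**
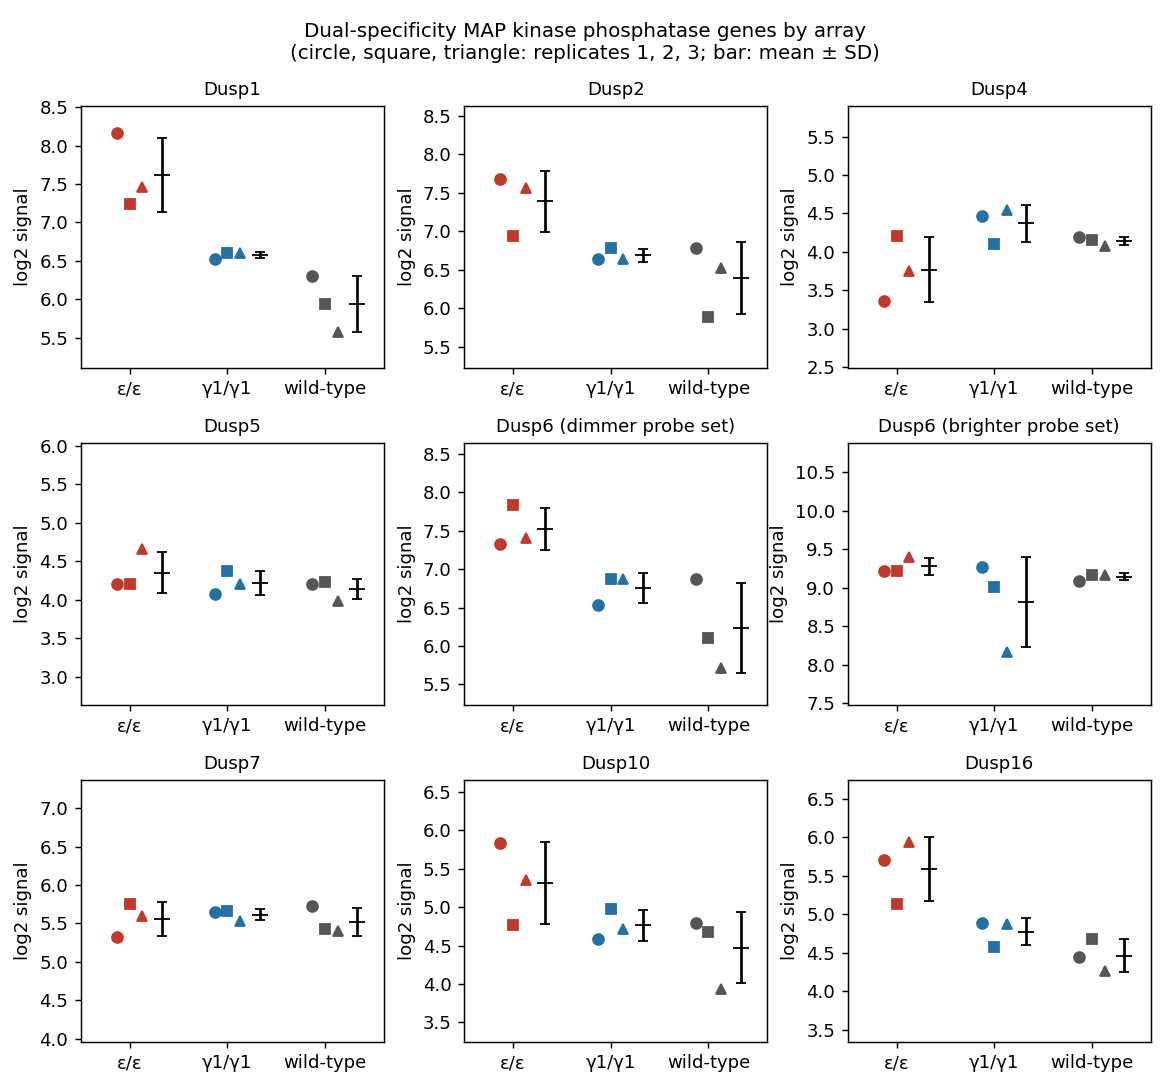
Log2 signal (y axis) of each phosphatase gene in ε/ε, γ1/γ1 and wild-type cells (x axis), 1 point per array, with the mean ± SD of each genotype (n = 3); every panel spans the same log2 range. For Dusp1, Dusp2, Dusp16 and the dimmer Dusp6 probe set the 3 ε/ε arrays lie above the other 6, while Dusp5 and Dusp7 overlap throughout.

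Between ε/ε and wild-type, 3 of the 8 members rose, 0 fell and 5 did not pass, where 6.34% of all genes tested passed, 2.33% as higher. All 8 members passed the filter on low signals. The members' median log2 difference was 0.53, in a range of -0.37 to 1.68, against a median of -0.01 over all genes tested. The ε/ε arrays lay wholly above the wild-type arrays for 4 members (Dusp1, Dusp2, Dusp16 and, by little, Dusp6) and wholly below for 0, where 11.8% of all genes lay wholly above and 16.6% wholly below. The count of members that passed was 1, namely Dusp1, without wild-type replicate 3. Of all genes that passed, 36.7% were higher in ε/ε. That share was 57.7% under quantile normalization, where 3 members again rose. Between ε/ε and γ1/γ1 it was 38.3%, and 53.4% under quantile normalization and 54.5% with arrays centred on their medians.

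Between γ1/γ1 and wild-type, 0 of the 8 members passed in limma (0.0411% of all genes passed). At an unadjusted p under 0.05, 1 member differed, Dusp1, as did 6.82% of all genes. The median difference of the members was 0.26, from -0.33 for Dusp6 to 0.64 for Dusp1, and all γ1/γ1 arrays lay above all wild-type arrays for 1 member, where 4.68% of all genes did. This comparison shares its wild-type arrays with the one before.

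Between ε/ε and γ1/γ1, 0 of the 8 members passed in limma (2.66% of all genes passed), while 4 had an unadjusted p under 0.05 (19.9% of all genes). These were Dusp1, Dusp2 and Dusp16, with ε/ε arrays wholly above γ1/γ1 arrays (9.86% of all genes), and Dusp4, with a difference of -0.60 (adjusted p = 0.153). Dusp1 passed under quantile normalization (adjusted p = 0.0407), with arrays centred on their medians (0.0462), under a stricter filter, at the 75th percentile of each array in place of its median (0.0387) and without ε/ε replicate 2 (0.0439). Dusp16 passed without ε/ε replicate 2 (0.0245). The means ran in the order ε/ε, γ1/γ1, wild-type from high to low in 5 of the 8 members (Dusp1, Dusp2, Dusp5, Dusp10 and Dusp16), an order held by 21.0% of all genes tested. Within it, γ1/γ1 and wild-type as neighbours did not differ beyond the threshold for any of the 5. By the F test for any difference among the genotypes 2 members passed, Dusp1 (adjusted p = 0.0139) and Dusp16 (adjusted p = 0.0355), where 4.11% of all genes did. Without wild-type replicate 2 neither passed, and without ε/ε replicate 1 or 3, any γ1/γ1 array, or wild-type replicate 1 or 3, 1 of them passed.

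**Figure D2:**
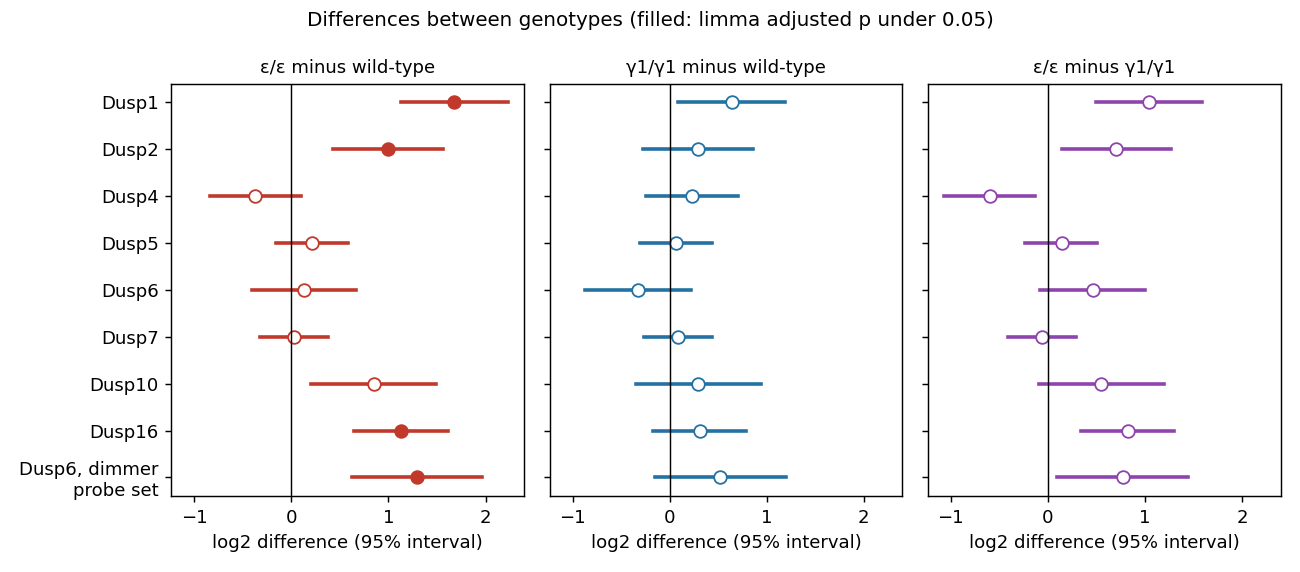
Log2 difference (x axis, point) with its 95% interval (line) for each member (y axis) in the 3 comparisons, from limma; filled points have an adjusted p under 0.05. In ε/ε minus wild-type Dusp1, Dusp2 and Dusp16 are filled at 1.68, 1.00 and 1.13, as is the dimmer Dusp6 probe set at 1.29, which comes from the fit of single probe sets; the other comparisons hold no filled point.

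The 8 B cell genes measured of 10 on the follicular marker list, among them Ms4a1, Cd79a, Cd79b and Pax5, were above the array median on all 9 arrays. Macrophage genes, of which 13 of 14 were measured, differed between arrays of 1 genotype. Their summed log2 signals ran from 50.7 to 83.0 in ε/ε, from 46.2 to 48.2 in γ1/γ1 and from 46.9 to 47.8 in wild-type cells, and 0 of their values were at 0. Their mean signal was 6.39, 4.45 and 3.90 in ε/ε replicates 1, 2 and 3, against 3.55 to 3.71 in γ1/γ1 and 3.61 to 3.68 in wild-type cells. Of the 9 macrophage genes tested 0 passed in limma between ε/ε and wild-type (4 at an unadjusted p under 0.05), with a median difference of 1.22. Dusp1, Dusp2 and Dusp10 were highest in this same ε/ε replicate 1, whereas Dusp16 and Dusp5 were highest in replicate 3 and the dimmer Dusp6 probe set in replicate 2. Without ε/ε replicate 1, Dusp1 was still higher by 1.41 (adjusted p = 0.0132) and Dusp16 by 1.07 (adjusted p = 0.0471), while Dusp2 differed by 0.85 (adjusted p = 0.119). In ε/ε replicate 3 the macrophage mean of 3.90 was above that of every γ1/γ1 and wild-type array. Dusp1 read 7.46 there, above the highest γ1/γ1 or wild-type value of 6.60. ε/ε replicate 1 and γ1/γ1 replicate 1 also read low for Xist, the RNA that silences an X chromosome in females, at 5.25 and 4.53 against 10.37 to 10.79 on the other arrays. The Y-linked gene Eif2s3y read 7.40 and 7.99 on these arrays and 5.40 on ε/ε replicate 2, against 2.75 to 3.64 on the other 6. With the 2 arrays of low Xist left out, Dusp1 passed (1.41, adjusted p = 0.0207), while Dusp16 (1.07, adjusted p = 0.0607) and Dusp2 (0.85, adjusted p = 0.139) did not. With ε/ε replicate 2 left out as well, Dusp16 passed (1.48, adjusted p = 0.0457), while Dusp1 (1.52, adjusted p = 0.0636) and Dusp2 (1.16, adjusted p = 0.139) did not, the lone ε/ε array being assumed to vary like the other groups. Marginal zone B cell genes had mean signals of 6.19 to 6.38 in ε/ε, 5.87 to 6.14 in γ1/γ1 and 5.35 to 5.59 in wild-type cells. Of the 9 tested, 4 passed as higher in ε/ε than in wild-type, where 2.33% of all genes did. The list did not move as one. Il9r, Ackr3, Myof, Dtx1, Cr2 and, at signals below the array medians, S1pr3 lay wholly above wild-type in ε/ε. Cd9, Plac8 and Notch2 overlapped, and Cd1d1 read 4.82, 4.82 and 4.89 against 4.89, 4.94 and 5.20. Summed signals in ε/ε lay wholly above wild-type for 8 T cell genes (26.4 to 27.8 against 25.2 to 25.3), 7 dendritic cell genes (27.5 to 28.6 against 25.5 to 26.3), 6 plasma cell genes (29.8 to 31.8 against 28.1 to 29.6) and the follicular list itself (75.6 to 76.4 against 71.1 to 74.8). Of these lists 1, 4, 4 and 8 genes were tested, and 0 passed between ε/ε and wild-type. The sums overlapped for 10 neutrophil genes (29.9 to 31.3 in ε/ε against 30.4 to 31.5 in wild-type). They also overlapped for 6 natural killer cell genes (22.5 to 24.3 against 22.2 to 23.2). Of the T cell genes 5 were above the array median on no array. Single genes went otherwise, such as Cd3g of the T cell list, which overlapped, and Sdc1 of the plasma cell list, which was not higher. The part of these marker genes in the members' differences was not tested.

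**Figure D3:**
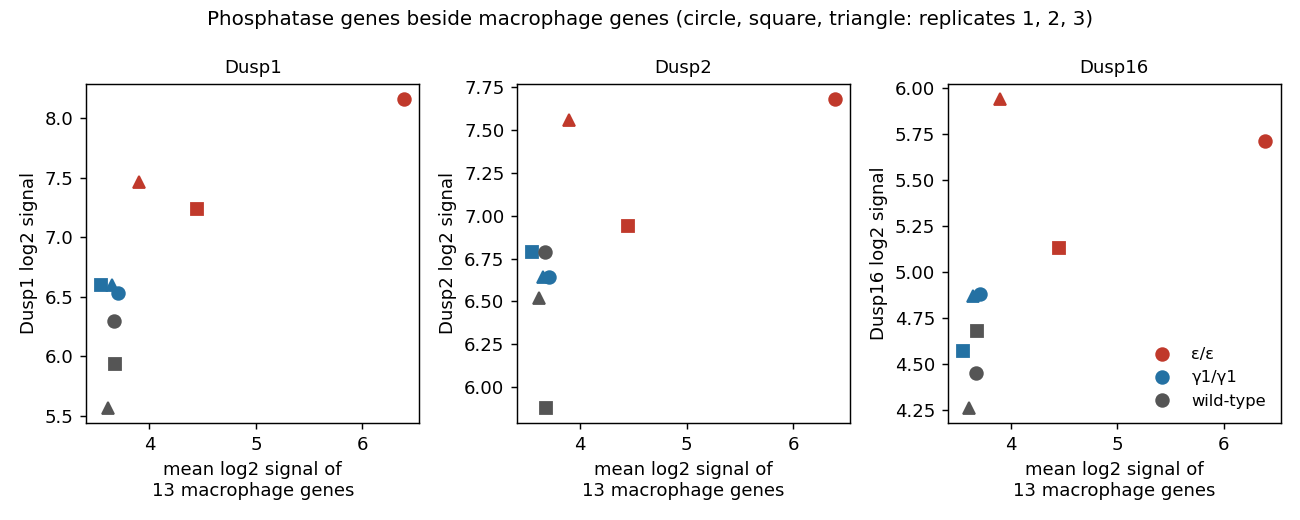
Log2 signal of Dusp1, Dusp2 and Dusp16 (y axes) against the mean log2 signal of 13 macrophage genes (x axis), 1 point per array. ε/ε replicate 1 lies at 6.39 on the x axis. ε/ε replicate 3 lies at 3.90, above the γ1/γ1 arrays (3.55 to 3.71) and the wild-type arrays (3.61 to 3.68). It reads 7.46 for Dusp1, 7.56 for Dusp2 and 5.94 for Dusp16.

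The further dual-specificity phosphatase genes, most of which encode small enzymes without the MAP kinase docking domain, gave 1 call. Of 18 listed, 10 were tested, of which 0 rose and 1 fell between ε/ε and wild-type, with a median difference of -0.04. Of all genes tested 6.34% passed either way in that comparison. Dusp8 and Dusp9, which are among the 10, differed by 0.13 and 0.21 (adjusted p = 0.667 and 0.484 in limma). Dusp12 read 4.60, 5.48 and 5.16 in ε/ε, 6.12, 6.22 and 5.97 in γ1/γ1 and 6.26, 5.97 and 6.09 in wild-type cells. It fell by 1.02 in ε/ε against wild-type (SE 0.21, adjusted p = 0.0216) and by 1.02 against γ1/γ1 (adjusted p = 0.0352). The ε/ε arrays lay below the other 6, whereas for Dusp1, Dusp2 and Dusp16 they lay above. The first of these calls was lost with the mean of its probe sets, where the difference was -0.53, (adjusted p = 0.155), and when any single wild-type array was left out (adjusted p up to 0.0743). The call against γ1/γ1 was lost with any of 8 of the 9 arrays left out, and held without ε/ε replicate 2.

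Of other phosphatases known to act on MAP kinases, 7 of 8 were tested. Between ε/ε and wild-type 0 were higher and 1 lower, with a median of -0.29, where 6.34% of all genes passed either way. Ppm1b, a serine and threonine phosphatase, fell by 0.56 (SE 0.13, adjusted p = 0.0310), a call lost with ε/ε replicate 1, ε/ε replicate 2 or any single wild-type array left out, at an adjusted p of at most 0.111. It was lost under 8 of 17 alternatives in all. Among these were quantile normalization (-0.4, adjusted p = 0.091) and the fit with only the 6 arrays compared (adjusted p = 0.0598).

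No call was made among the genes of the kinases these phosphatases act on or their upstream kinases. Among 6 MAP kinase genes tested, 6 MAP2 kinase genes and 12 MAP3 kinase genes, 0 passed in any of the 3 comparisons in limma, where 6.34%, 0.0411% and 2.66% of all genes did. At an unadjusted p under 0.05, 0, 1 and 2 of them differed between ε/ε and wild-type, and their medians between ε/ε and wild-type were -0.04, 0.07 and 0.05. Mapk7, the gene of ERK5, differed by 0.32 (adjusted p = 0.316) and Mapk11, of p38β, by -0.26 (adjusted p = 0.524). Map2k5, the kinase of ERK5, gave -0.66 (adjusted p = 0.0517, and 0.0364 under the stricter filter, 0.0489 and 0.0334 without γ1/γ1 replicates 1 and 3) and Map2k1, a kinase of ERK, 0.28 (adjusted p = 0.5). Map3k1, upstream of JNK, gave -0.88 (adjusted p = 0.0589, and 0.0402 under the stricter filter and 0.0475 without ε/ε replicate 3) and Braf, upstream of ERK, -0.50 (adjusted p = 0.0702). Without ε/ε replicate 2, 1 MAP kinase gene passed between ε/ε and γ1/γ1.

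Of 11 genes of Ras activation tested, 1 rose and 0 fell in ε/ε against wild-type, namely Blnk, the adaptor that gathers signalling proteins at the receptor, by 0.79 (SE 0.15, adjusted p = 0.0156). Of 11 other inhibitors of Ras and ERK, among them the Sprouty and Spred genes, 0 rose and 1 fell, namely Rasa1, a GTPase-activating protein that turns Ras off, by 0.76 (SE 0.15, adjusted p = 0.0167). Leaving out wild-type replicate 2 or 3 ended each of these calls, with an adjusted p of at most 0.0705 for Blnk and 0.0721 for Rasa1. Of all genes tested 6.34% passed either way between ε/ε and wild-type.

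Among 13 effectors of ERK and p38 tested, 0 rose and 2 fell between ε/ε and wild-type, where 6.34% of all genes passed either way. Rps6ka5, a nuclear kinase activated by ERK and p38, fell by 0.79 in ε/ε against wild-type (SE 0.14, adjusted p = 0.0119) and by 0.67 against γ1/γ1 (adjusted p = 0.0342). Rps6ka3, a kinase activated by ERK, fell by 0.85 against wild-type (SE 0.21, adjusted p = 0.0406), a call lost under 11 of 17 alternatives, and Rps6ka5 missed it without wild-type replicate 2 (adjusted p = 0.0557).

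Immediate-early genes, which are switched on by MAP kinase signalling, also held calls. Of 22 tested, 7 rose and 0 fell between ε/ε and wild-type, where 2.33% of all genes passed as higher and 6.34% either way, with a median of 0.58, and 0 passed between γ1/γ1 and wild-type (1 at an unadjusted p under 0.05), with a median of 0.16. Jun, of AP-1, read 8.27, 7.87 and 6.99 in ε/ε, 5.59, 6.73 and 6.20 in γ1/γ1 and 5.76, 5.30 and 4.98 in wild-type cells (2.37 for ε/ε minus wild-type, SE 0.37, adjusted p = 0.00745). Junb, another AP-1 gene, had means of 6.86 ± 0.73 for ε/ε, 5.34 ± 0.29 for γ1/γ1 and 5.09 ± 0.41 for wild-type (SD, n = 3 each), a rise of 1.77 over wild-type (adjusted p = 0.0176) that was lost without wild-type replicate 2 (0.0811) or 3 (0.0555). Fos, their partner, gave 1.67 (adjusted p = 0.0479), a call lost with any one of 8 of the 9 arrays left out. The Egr genes were not among the 7: Egr1 read 6.53, 4.68 and 4.99 in ε/ε against 4.56, 4.02 and 4.65 in wild-type cells (0.99, adjusted p = 0.200), and Egr2 differed by -0.76 (adjusted p = 0.0504). With ε/ε replicate 1 or 3 left out 4 genes of the list passed, and with wild-type replicate 2 or 3 left out 2 did. Under the stricter filter and with the mean of probe sets 7 rose and 2 fell.

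**Figure D4:**
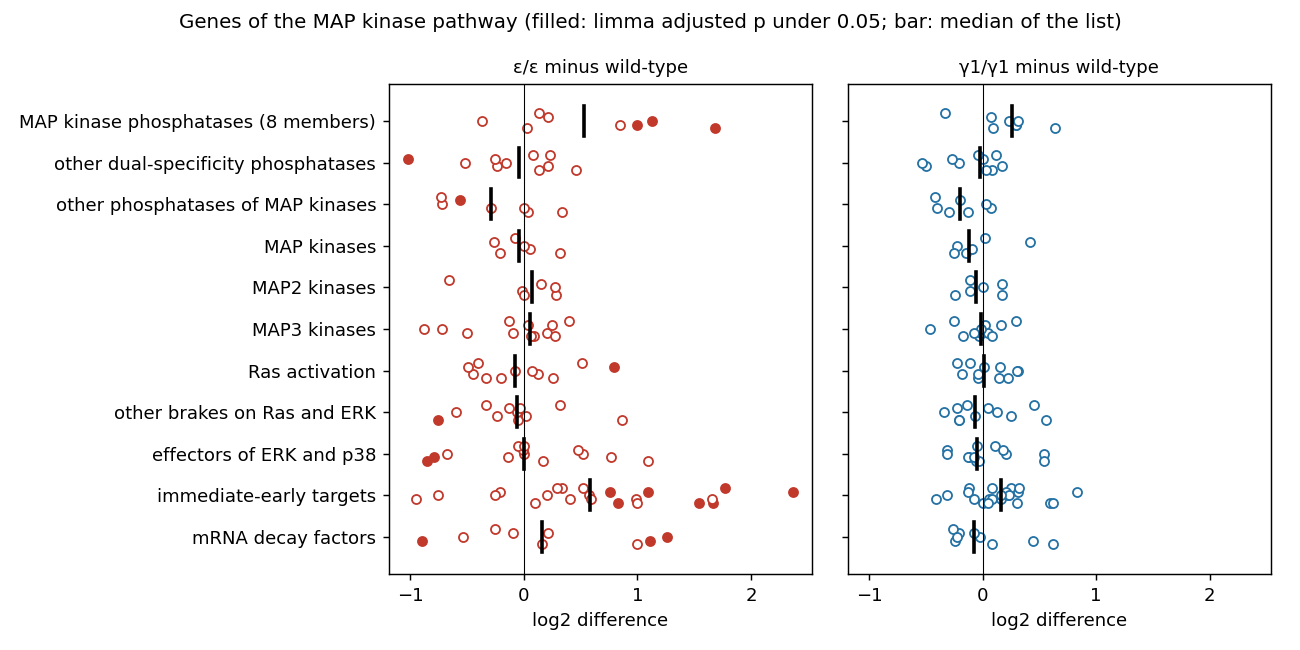
Log2 difference (x axis) of each tested gene (points, filled where limma's adjusted p is under 0.05) in 11 lists of the MAP kinase pathway (y axis) for ε/ε minus wild-type and γ1/γ1 minus wild-type; black bars are list medians. The 8 phosphatases have a median of 0.53 and the immediate-early genes one of 0.58 in ε/ε, against -0.04 for the MAP kinases; no point is filled in γ1/γ1.

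Among the 12169 other genes tested, Dnajb9, Prr22 and Pld3 had the signals most like Dusp1 over the 9 arrays, with Pearson's r of 0.981, 0.973 and 0.967. For Dusp2 these were Rai1 (0.973), Tln1 (0.968) and Myg1 (0.965). For Dusp16 they were Defa26 (0.981), a defensin gene with near-identical copies whose identity is therefore uncertain, Smarcd1 (0.962) and Whrn (0.959). Among the members, Dusp1 was most like Dusp10 (0.901), Dusp16 (0.891) and Dusp2 (0.869), and its r was -0.64 with Dusp4. These values describe 9 arrays that share 3 genotypes, and they mix the differences between genotypes with the spread within them.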

How the data were processed

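RNA of sorted follicular B cells was extracted with TRIzol, and 54 to 360 ng was amplified with a Nugen PicoWTA kit and labelled with biotin, per the labels' protocols. The authors deposited log2 signals, already processed, for 41345 probe sets on 9 single-colour arrays. The submitters' processing notes name R 3.3.1, while background correction, normalization and probe summary are steps that the sources used here do not give. That the scale is log2 follows from the range of values (array medians 3.53 to 3.69). For 45.9% of probe sets at least 2 arrays hold the same deposited value, as do 4 of the 9 probe sets of the members, so an SD near 0 can be a repeated value. No 2 arrays were identical (0 pairs). Precision is limited by the number of arrays.

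Gene symbols were taken from GEO's annotation of the platform: 23521 had 1 symbol, 1814 several (not used) and 16010 none here. The brightest probe set stood for a gene, and a gene was tested when above the array median on at least 3 of 9 arrays (12170 of 22180 genes). All 9 arrays entered 1 model fitted with limma 3.58.1 in R 4.3.3 (a mean for each genotype), 6 residual degrees of freedom, eBayes, and Benjamini-Hochberg adjustment over all genes tested, with a threshold of 0.05. Every adjusted p comes from limma. The script was also run on simulated data of independent normal values. These hold no effects of single arrays, so that run does not bear on the calls given here. Promoter sequences and motif counts come from RefSeq windows of GRCm38.p6, in which 7 of 8 members matched by symbol (Dusp4 did not). Matplotlib 3.10.9 and Python 3.11.15 drew the figures.

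The members, gene lists, alternatives and named-gene rule were chosen with earlier results of these data known. The rule named all members with every probe set of a single symbol. From each pathway list it named up to 3 genes passing between ε/ε and wild-type with the largest absolute difference, or else the 2 with the smallest p. It also named the 3 genes most correlated with each member that passed. Egr1 and Egr2 were named after their values were seen. Alternatives covered scaling, filter, probe set rule, variance model, array weights, arrays in the fit, replicate block, each array left out, and threshold.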

Additional observations from a re-analysis of the deposited data

How the results depend on the processing

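Of the 447 planned recomputed differences of the members, 415 kept direction and side of the threshold, 14 lost a call, 7 gained one and 11 changed sign, and the cause of these changes was not tested. Between ε/ε and wild-type the number of members that passed was 1 without the 2 arrays of low Xist and 1 with only the 6 arrays compared. It was 1, Dusp16, without the 3 arrays of raised Eif2s3y, an alternative chosen after seeing the data, and ran from 1 to 4 with each array left out. The count of all genes was 424 with the 6 arrays compared, 1626 at an adjusted p under 0.1, 347 with a log2 difference of at least 1, and 186 to 789 with each array left out, in place of 772. Between γ1/γ1 and wild-type the count of all genes was 5, and it was 3 without the arrays of low Xist, 0 with 6 arrays and 0 to 6 with each array left out; that of members was 0 throughout. Between ε/ε and γ1/γ1 the number of members was 0, and it was 1 under quantile normalization, 1 with arrays centred on their medians, 1 under the stricter filter, 2 at an adjusted p under 0.1 and 0 to 2 with each array left out. The count of all genes there was 324, and it was 88 without the arrays of low Xist, 56 with 6 arrays, 803 at an adjusted p under 0.1, 173 with a log2 difference of at least 1 and 122 to 330 with each array left out. By the F test 2 members passed, and 1 without a filter, 1 without the arrays of low Xist and 0 to 2 with each array left out.

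Signs changed for 3 members, Dusp5, Dusp6 and Dusp7. With each array left out, Dusp7 ran from -0.06 to 0.15 between ε/ε and wild-type and from -0.16 to 0.06 between ε/ε and γ1/γ1, and Dusp5 from -0.01 to 0.15 between γ1/γ1 and wild-type and from -0.02 to 0.22 between ε/ε and γ1/γ1. Dusp7 between ε/ε and γ1/γ1 was 0.00 with centred arrays, 0.01 with array weights and 0.08 without the arrays of low Xist. Dusp6 between γ1/γ1 and wild-type was 0.10 with the mean of probe sets.

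With the replicate number as a block, 3 members passed between ε/ε and wild-type, 0 of all genes passed between γ1/γ1 and wild-type, and 1 member passed the F test. Residuals of arrays of the same number correlated at -0.09 to 0.16. Arrays of different numbers were not compared in this way, so these values cannot tell whether the numbers pair the arrays.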

Other observations

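Genes of factors that bind AU-rich elements, the sequences that make early-response messages short-lived, were measured beside the phosphatases. Of 9 tested, 2 rose and 1 fell between ε/ε and wild-type, with a median difference of 0.16. Of all genes tested 2.33% passed as higher and 6.34% either way. Zfp36l2, which promotes decay of such messages, had mean signals of 8.16 ± 0.09 for ε/ε, 6.88 ± 0.42 for γ1/γ1 and 6.89 ± 0.58 for wild-type (SD, n = 3 each), and was higher in ε/ε than in wild-type by 1.26 (SE 0.29, adjusted p = 0.0310) and than in γ1/γ1 by 1.28 (adjusted p = 0.0480). Zfp36l1, a close relative, had 9.24 ± 0.36 for ε/ε, 8.57 ± 0.21 for γ1/γ1 and 8.13 ± 0.57 for wild-type (1.11, adjusted p = 0.0451 for ε/ε against wild-type). This call was lost under 12 of 17 alternatives, and with the mean of probe sets the difference was 0.56 (adjusted p = 0.0808). Tia1, which represses translation of messages with such elements, fell by 0.90 in ε/ε against wild-type (SE 0.19, adjusted p = 0.0261). Of this list 0 genes passed without ε/ε replicate 1, the array with the highest macrophage genes, and 0 without wild-type replicate 2 or 3. Leaving out γ1/γ1 replicate 3, or ε/ε replicate 2 or 3, left 1 gene that passed, and it was lower.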
